A study of Mus musculus with 7 samples.

Results

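The erythroid genes described here are *Hemgn*, *Alas2*, *Slc4a1*, *Ahsp*, *Gata1*, *Klf1* and *Hba-a1*, 7 genes that developing red blood cells express. They were taken as a list because *Hemgn* was higher in the nasal tissue of mice exposed to diesel exhaust particles (DEPs) after both exposure times, and the list serves to read the blood or marrow content of the tissue. The list was thus chosen by the measured ratios of *Hemgn*, so the ratios of *Hemgn* are given as a description with no test. The rule names no values of the other genes. The members and the other lists were, however, chosen with earlier results of these data known, so their tests and counts are not those of an independent choice. Through the transcript names of the array, 6 of the 7 genes had a probe, with 1 probe each, and all 6 were among the 20664 names tested. *Ahsp*, which encodes the protein that stabilizes free alpha globin, was not analysed here.

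The tissue was the nasal cavity, including septum and turbinates, of female BALB/c mice, for which an age of 6 weeks is given. Tissue was taken after the exposure, so mice of the longer exposure may also have been older. Age at sampling and exposure time cannot be told apart. One group inhaled nebulized DEPs suspended in saline at 100 μg/m3, for 1 hour a day on 5 days a week, over 4 or 8 weeks, and the control group received saline in the same way. Each array compared DEP RNA, labelled with the red dye Cy5, with control RNA, labelled with the green dye Cy3, and there were 4 arrays after 4 weeks and 3 arrays after 8 weeks. The number of mice behind the RNA of an array, and whether control RNA was pooled, is not given in the sources used here. No array had the dyes swapped, so dye and exposure cannot be told apart, and each exposure time lies on its own slide, so slide and time cannot be told apart either. Of the 39429 probes, the DEP channel of an array had 18601 to 25069 well above background, and the control channel had 16985 to 26927. All 11 measured markers of the nasal lining, among them *Omp* of mature olfactory neurons and *Bpifa1* of secretory epithelium, were well above background in both channels of every array.

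Red blood cells are made mainly in the bone marrow and, in mice, also in the spleen. The transcription factors GATA1 and KLF1 switch on the genes of haem synthesis, globin and the red cell membrane, and the youngest red cells in the blood have lost the nucleus but still carry globin mRNA. Erythroid transcripts in a piece of nasal tissue can therefore come from blood in its vessels or from marrow in the bone that is dissected with it. In RNA from whole tissue, fewer cells of a type and less RNA per cell cannot be told apart.

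The region in front of the gene start is shown for the 3 listed genes that stood well above background on every array in both channels and had an entry in the RefSeq table of promoters (assembly GRCm38.p6, which holds 5 of the 7 genes). Each sequence is the 250 bases before the start, written 5′ to 3′ in the direction of transcription. Capitals mark matches, on either strand, to the GATA motif (AGATAA or AGATAG, and with T in the first place TGATAA or TGATAG), the CACC box (CACCC) that KLF factors bind and the CCAAT box (CCAAT). No matches of different motifs overlapped in these 3 windows.
*Hemgn*, chr4:46404184-46404433, minus strand: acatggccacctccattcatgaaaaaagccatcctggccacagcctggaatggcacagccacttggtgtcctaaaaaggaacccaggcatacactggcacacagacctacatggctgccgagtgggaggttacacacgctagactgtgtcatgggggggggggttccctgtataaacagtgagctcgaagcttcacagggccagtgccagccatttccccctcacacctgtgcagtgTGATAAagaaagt
*Alas2*, chrX:150547167-150547416, plus strand: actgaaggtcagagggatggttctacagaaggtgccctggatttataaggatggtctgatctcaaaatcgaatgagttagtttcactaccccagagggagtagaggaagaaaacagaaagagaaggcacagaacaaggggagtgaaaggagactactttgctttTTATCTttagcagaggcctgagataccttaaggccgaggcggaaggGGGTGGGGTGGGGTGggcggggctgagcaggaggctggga
*Hba-a1*, chr11:32283422-32283671, plus strand: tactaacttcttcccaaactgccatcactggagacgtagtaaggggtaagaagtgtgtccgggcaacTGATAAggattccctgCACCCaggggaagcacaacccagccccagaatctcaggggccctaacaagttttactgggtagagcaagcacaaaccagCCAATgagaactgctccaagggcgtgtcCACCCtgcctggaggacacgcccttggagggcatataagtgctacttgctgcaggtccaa
The *Hemgn* window held 1 GATA motif, 8 bases before the start, and no match to the other motifs. The *Alas2* window held 1 GATA motif and 3 CACC boxes in a row, and that of *Hba-a1* held 1 GATA motif, 2 CACC boxes and 1 CCAAT box. Of the 32851 promoter windows of the same length in the table, 26.5% held a GATA motif, 52% a CACC box and 33.8% a CCAAT box, so these matches are frequent and describe the letters only.

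*Hemgn*, which encodes hemogen, a nuclear protein of blood-forming cells and a target of GATA1, was about 2-fold higher in DEP-exposed tissue on every array. Its log2 ratio of DEP over control was 1.212, 1.099, 1.202 and 0.997 on the 4 arrays of 4 weeks. After 8 weeks it was 1.265, 1.172 and 1.052, within nearly the same range. The mean was 1.13 ± 0.10 (SD, n = 4) after 4 weeks, a 2.18-fold difference, and 1.16 ± 0.11 (SD, n = 3) after 8 weeks, a 2.24-fold difference. Ordered from the highest ratio, *Hemgn* stood at place 113 of 20664 after 4 weeks and at place 307 after 8 weeks, and 102 genes had a log2 ratio of at least 1 at both times. The probe was bright in both channels, with a background-subtracted intensity of 3607 to 5742 in the DEP channel and 2024 to 2743.5 in the control channel before normalization. These intensities precede the normalization of the dyes, so they describe brightness and not the difference between the channels.

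*Alas2* encodes the erythroid enzyme of the first step of haem synthesis. Its log2 ratio was 0.48, 0.34, 0.39 and 0.26 on the arrays of 4 weeks and -0.26, -0.39 and -0.32 on those of 8 weeks, so that all arrays of one time lay above 0 and all of the other below it. The gene rose by 0.37 ± 0.09 (SD, n = 4) on the log2 scale after 4 weeks, or 1.29-fold (adjusted p = 0.0013, limma). After 8 weeks it fell by 0.32 ± 0.06 (SD, n = 3), or 1.25-fold (adjusted p = 0.0043, limma). The value was 0.59 after 4 weeks with the scanner software's own processed signals and -0.55 after 8 weeks with median centring in place of loess. The ratio at 8 weeks was lower than that at 4 weeks by a log2 difference of -0.69 with an SE of 0.08 (adjusted p = 6.9e-04, limma). The probe was well above background in both channels of all 7 arrays, with a background-subtracted intensity of 133 to 208 in the DEP channel and of 146.5 to 344 in the control channel.

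*Slc4a1* encodes band 3, the anion exchanger of the red cell membrane. Its log2 ratio was 0.20, 0.15, 0.17 and 0.14 after 4 weeks and -0.74, -0.84 and -0.88 after 8 weeks. All 4 arrays of the shorter exposure were thus slightly above 0, and all 3 arrays of the longer exposure were clearly below it. The value of 0.16 ± 0.03 (SD, n = 4) after 4 weeks passed the test (adjusted p = 0.022, limma). With the processed signals it was 0.47. It lost the call with median centring (0.11, adjusted p = 0.15), with the background model fitted on all spots (0.13, adjusted p = 0.11), and without replicate 2, 3 or 4 of that time (adjusted p = 0.069, 0.071 and 0.057). The control channel of replicate 3 was not well above background. After 8 weeks *Slc4a1* fell by 0.82 ± 0.07 (SD, n = 3) on the log2 scale, or 1.76-fold (adjusted p = 1.9e-05, limma; -1.26 with the processed signals), and the 2 times differed by -0.98 with an SE of 0.07 (adjusted p = 7.6e-05, limma).

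*Hba-a1* encodes an alpha chain of adult haemoglobin, and its near-identical neighbour *Hba-a2* encodes the other, so which copy a probe measured is uncertain. The log2 ratio of *Hba-a1* was 0.11, 0.00, 0.13 and -0.27 after 4 weeks and -0.50, -0.65 and -0.54 after 8 weeks. The 4-week arrays spread around 0, and the 8-week arrays all lay below the lowest of them. The mean of -0.006 with an SE of 0.07 after 4 weeks did not pass the test (adjusted p = 0.95, limma), and it was 0.08 without replicate 4 and 0.04 with the processed signals. After 8 weeks *Hba-a1* fell by 0.56 ± 0.07 (SD, n = 3), or 1.48-fold (adjusted p = 0.0018, limma), and the difference between the times was -0.56 with an SE of 0.11 (adjusted p = 0.0086, limma).

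The probes of the transcription factor genes *Gata1* and *Klf1* were close to background. In the DEP channel neither was well above background on any of the 7 arrays. In the control channel *Gata1* was well above background on 1 of 4 arrays after 4 weeks and 2 of 3 after 8 weeks, and *Klf1* on 2 of 4 and 1 of 3. The log2 ratio of *Gata1* was -0.89, -0.06, -0.16 and 0.12 after 4 weeks and between -0.17 and -0.13 after 8 weeks. That of *Klf1* was 0.07, -1.16, -1.34 and -0.20 after 4 weeks and between -0.25 and -0.03 after 8 weeks. Replicate 1 set the 4-week mean of *Gata1*, which was -0.25 with it and -0.03 without it, and replicates 2 and 3 carried that of *Klf1*. Neither passed the test at either time (adjusted p = 0.21 and 0.53 for *Gata1*, 0.051 and 0.69 for *Klf1*, limma).

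**Figure D1:**
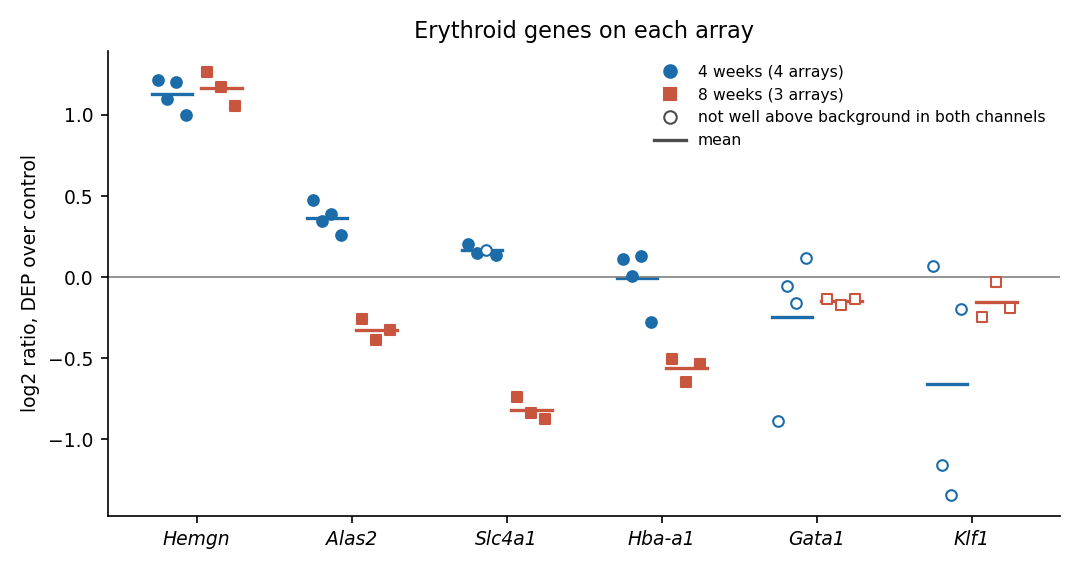
Log2 ratio of DEP over control (vertical axis) of the 6 measured genes on each array after 4 weeks (blue circles, 4 arrays) and 8 weeks (red squares, 3 arrays), with lines at the means and open symbols where the probe was not well above background in both channels. *Hemgn* lies between 1.00 and 1.26 on all arrays, while *Alas2*, *Slc4a1* and *Hba-a1* lie lower after 8 weeks than on any 4-week array.

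Of the 5 genes tested beside *Hemgn*, 2 were thus called higher after 4 weeks (*Alas2* and *Slc4a1*) and 0 lower, where 21.6% of all genes tested were called higher and 16.5% lower at an adjusted p of at most 0.05. After 8 weeks 0 were called higher and 3 lower (*Alas2*, *Slc4a1* and *Hba-a1*), against 20.3% and 17% of all genes. For the difference between the times, 3 of the 5 had a ratio called lower after 8 weeks and 0 a ratio called higher, against 16.1% and 14.9% of all genes. The median log2 ratio of the 5 genes was -0.006 after 4 weeks and -0.32 after 8 weeks, beside medians of 0.001 and 0.013 over all genes tested. Of all genes called, 56.7% were higher after 4 weeks and 54.6% after 8 weeks. These shares were 67.8% and 50.9% with the software's processed signals, and 42.5% and 27% with median centring.

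The levels of the 2 channels, after normalization between arrays, were also set side by side at both times. The mean control level of *Alas2* was 7.62 ± 0.10 (log2 intensity, SD, n = 4) after 4 weeks and 8.40 ± 0.06 (SD, n = 3) after 8 weeks, 1.71-fold higher, while the DEP level was 7.99 ± 0.08 and 8.08 ± 0.04. For *Slc4a1* the control level was 7.16 ± 0.21 and 7.88 ± 0.08, and the DEP level was 7.33 ± 0.19 and 7.06 ± 0.04. For both genes the lower ratio after 8 weeks thus came with a higher control level on every array of that time, while the DEP levels of *Slc4a1* overlapped between the times. *Hba-a1* was higher after 8 weeks in both channels, by a log2 difference of 1.27 in the control channel and 0.71 in the DEP channel. *Hemgn* had nearly the same level at both times, 11.11 ± 0.11 and 11.15 ± 0.17 in the control channel and 12.24 ± 0.03 and 12.31 ± 0.06 in the DEP channel. Over all genes tested, the middle 90% of these differences in the control channel ran from -0.57 to 0.69. *Alas2* (0.78) and *Hba-a1* (1.27) lay above its upper end, and *Slc4a1* (0.71) only just. In the DEP channel that range was -0.57 to 0.90, and *Alas2* (0.09), *Slc4a1* (-0.27) and *Hba-a1* (0.71) lay within it. These levels compare arrays of different slides, and mice that may differ in age at sampling, and were not tested.

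**Figure D2:**
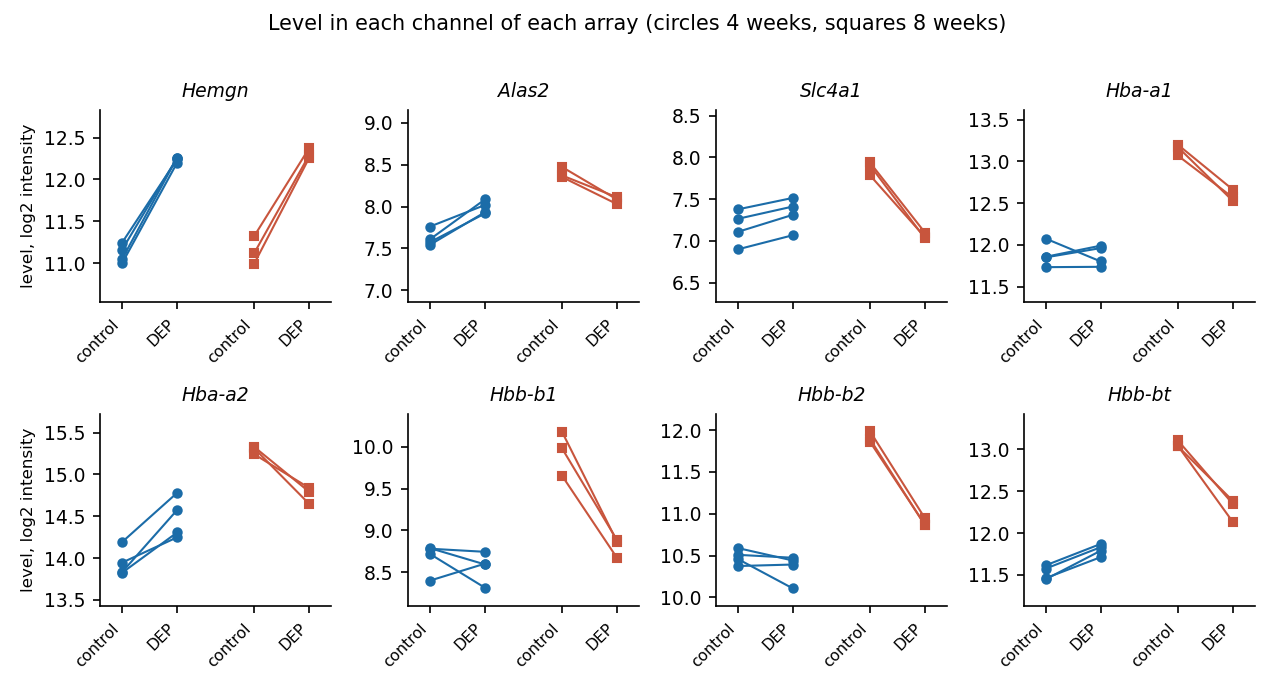
Level in log2 intensity (vertical axis, each panel spanning the same range) in the control and the DEP channel of each array, joined by a line per array, for 4 of the listed genes and 4 other globin genes after 4 weeks (blue circles) and 8 weeks (red squares). The *Hemgn* lines climb alike at both times, and the control levels of the globin genes are higher after 8 weeks, by log2 differences of 1.27 to 1.54.

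The other adult globin genes fell after 8 weeks, as *Hba-a1* did. Of 5 globin genes tested beside *Hba-a1*, 2 were called higher and 1 lower after 4 weeks, and 0 higher and 4 lower after 8 weeks. Over all genes, 21.6% were called higher and 16.5% lower after 4 weeks, and 20.3% and 17% after 8 weeks. *Hba-a2* had a log2 ratio of 0.30, 0.48, 0.59 and 0.74 after 4 weeks and of -0.54, -0.40 and -0.67 after 8 weeks, so it rose by 0.53 after the shorter exposure (adjusted p = 0.0017, limma) and fell by 0.54 after the longer one (adjusted p = 0.0029). *Hbb-bt*, a beta chain gene, rose by 0.28 after 4 weeks (adjusted p = 0.0056) and fell by 0.77 after 8 weeks (adjusted p = 6.7e-05), and its 4-week value was 0.17 with median centring. The beta chain genes *Hbb-b1* and *Hbb-b2* had mean log2 ratios of -0.11 and -0.13 after 4 weeks, which did not pass the test, and fell by 1.13 and 1.02 after 8 weeks (adjusted p = 2.4e-04 and 4.5e-05). All 4 of these genes had a ratio called lower after 8 weeks than after 4 weeks, by log2 differences of -1.06 to -0.89. The beta chain genes are close paralogs of each other, so their probes may share transcripts. Which beta chain gene each probe measured in these BALB/c mice is therefore uncertain, for *Hbb-bt* too. The control level was 2.41-fold to 2.91-fold higher after 8 weeks than after 4 weeks for these 4 genes, and the DEP level 1.18-fold to 1.45-fold higher. The 5 globin genes tested, with the embryonic *Hbb-y*, summed to an intensity of 19310 to 23510 in the control channel and 24700 to 33570 in the DEP channel after 4 weeks. After 8 weeks the sum was 52450 to 54430 in the control channel and 33240 to 37160 in the DEP channel. *Hba-a2* made up most of each sum, with a mean control level of 13.95 (log2 intensity) after 4 weeks beside 11.53 for *Hbb-bt*. A list sum follows its brightest genes, here and in the lists below. The embryonic *Hbb-y* was near background, with log2 ratios of -0.28 (adjusted p = 0.011, limma) and 0.08, and *Hba-x* was not well above background in any channel.

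In all, 49 other erythroid genes in 5 lists were tested, of 59 listed. After 4 weeks 13 of the 49 were called higher (26.5%) and 8 lower (16.3%), shares near the 21.6% and 16.5% of all genes. With the software's processed signals 20 were called higher after 4 weeks, and with median centring 8 were. After 8 weeks 9 were called higher (18.4%) and 18 lower (36.7%), against 20.3% and 17% of all genes. The ratio was called lower after 8 weeks than after 4 weeks for 16 of the 49 (32.7%) and higher for 4 (8.16%), against 16.1% and 14.9%. Of the 49 genes, 21 had a mean log2 ratio above 0 after 8 weeks, and the median was 0.03 after 4 weeks and -0.14 after 8 weeks.

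The list of haem synthesis and iron uptake held 8 of the 18 genes called lower after 8 weeks. Of its 15 genes tested, 3 were called higher and 4 lower after 4 weeks, and 3 higher and 8 lower after 8 weeks, with medians of 0.04 and -0.25. The shares were 20% and 26.7% after 4 weeks, against 21.6% and 16.5% of all genes. After 8 weeks they were 20% and 53.3%, against 20.3% and 17%. The 4 called lower after 4 weeks were also lower after 8 weeks. *Urod*, uroporphyrinogen decarboxylase, fell by 0.38 after 4 weeks (adjusted p = 6.6e-04, limma) and by 1.07 after 8 weeks (adjusted p = 6.4e-06), with a range of -1.08 to -1.06 over the 3 later arrays. *Alad*, which makes porphobilinogen, fell by 0.41 and 0.94 (adjusted p = 0.0059 and 2e-04), although a second *Alad* probe had log2 ratios of -0.04 and 0.33 that did not pass the test. *Tmem14c*, a mitochondrial transporter of haem precursors, fell by 0.60 and 0.93 (adjusted p = 1.6e-04 and 2.9e-05). Every cell that makes haem uses these enzymes, so they do not mark red cells alone. *Ppox*, protoporphyrinogen oxidase, rose by 0.30 after 4 weeks (adjusted p = 0.04) and fell by 0.57 after 8 weeks (adjusted p = 0.0054), but the 4-week call was lost without any single 4-week array, without replicate 2 of 8 weeks, with the all-spot background model and with median centring. *Steap3*, an iron reductase, had log2 ratios of 0.18 and 0.19 (adjusted p = 0.025 and 0.036), calls that were also lost without some single arrays and under both of these alternatives, and its second probe had values of -0.06 and -0.24 (adjusted p = 0.42 and 0.026).

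Of the genes for the red cell membrane and its skeleton, 10 of 16 passed the filter, and *Epb42*, which encodes a membrane skeleton protein, and *Icam4* were not well above background in any channel of any array. Of the 10, 3 were called higher and 1 lower after 4 weeks, and 1 higher and 3 lower after 8 weeks. The shares were 30% and 10% after 4 weeks, against 21.6% and 16.5% of all genes. After 8 weeks they were 10% and 30%, against 20.3% and 17%. *Ermap*, an erythroblast membrane protein of the immunoglobulin superfamily, rose by 0.59 after 4 weeks (adjusted p = 0.0013, limma) and by 1.12 after 8 weeks (adjusted p = 1e-04). Its values were 0.27, 0.68, 0.71 and 0.71 and then 1.20, 1.17 and 0.99, higher than 0 on all 7 arrays as for *Hemgn*. A second *Ermap* probe, too dim to be tested, had values of -0.20, -0.42 and -0.42 after 8 weeks, with the control channel well above background on 2 of the 3 arrays and the DEP channel on none. *Dmtn*, which bundles actin under the membrane, rose by 0.25 (adjusted p = 0.012) and then fell by 0.63 (adjusted p = 3.3e-04). The 4-week call of *Dmtn* was lost with the background model fitted on all spots (0.21, adjusted p = 0.06) and with median centring (0.18, adjusted p = 0.077), and with the processed signals its values were 0.46 and -1.19. *Tmod1*, which caps actin filaments, fell by 0.40 and 0.60 (adjusted p = 6.3e-04 and 1.4e-04), the latter -1.195 with the processed signals. *Ank1*, the ankyrin of the red cell skeleton, had mean log2 ratios of -0.22 and -0.41, which did not pass the test, and replicate 2 of 4 weeks stood at -1.24.

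In the list of maturation and signalling, 5 of 13 genes were called higher at each time (38.5%, against 21.6% and 20.3% of all genes). After 4 and 8 weeks, 1 and 2 were called lower (7.69% and 15.4%, against 16.5% and 17%). *Mfsd2b*, the sphingosine-1-phosphate exporter of red cells and platelets, rose by 0.79 after 4 weeks and 0.64 after 8 weeks (adjusted p = 1.7e-04 and 9e-04, limma), with values of 0.53 to 1.05 over the 7 arrays. *Tspo2*, an erythroid cholesterol-binding protein, rose by 0.40 and 0.56 (adjusted p = 0.002 and 7.9e-04), with 0.87 after 4 weeks with the processed signals and 0.31 after 8 weeks with median centring. *Tent5c*, a poly(A) polymerase, rose by 0.27 and 0.35 (adjusted p = 0.0067 and 0.0038), calls that were lost with median centring, where the values were 0.17 and 0.03 (adjusted p = 0.1 and 0.82). *Pklr*, the pyruvate kinase of liver and red cells, had a mean log2 ratio of -0.14 after 4 weeks, when its DEP channel was not well above background, and rose by 1.14 after 8 weeks (adjusted p = 0.0019). *Slc38a5*, a glutamine transporter, fell by 0.52 and 0.83 (adjusted p = 1.8e-04 and 2.6e-05), the latter -1.71 with the processed signals. Among 6 transcription factor genes tested, 0 were called higher and 1 lower at each time (16.7% lower, near the 16.5% and 17% of all genes). *Zfpm1*, the GATA1 cofactor FOG1, fell by 0.38 and 0.57 (adjusted p = 0.0014 and 3.7e-04), and a second probe gave -0.39 and -0.56. *Tal1*, *Lyl1* and *Lmo2*, which act in a complex with GATA1, had mean log2 ratios between -0.44 and 0.28 that did not pass the test at either time.

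**Figure D3:**
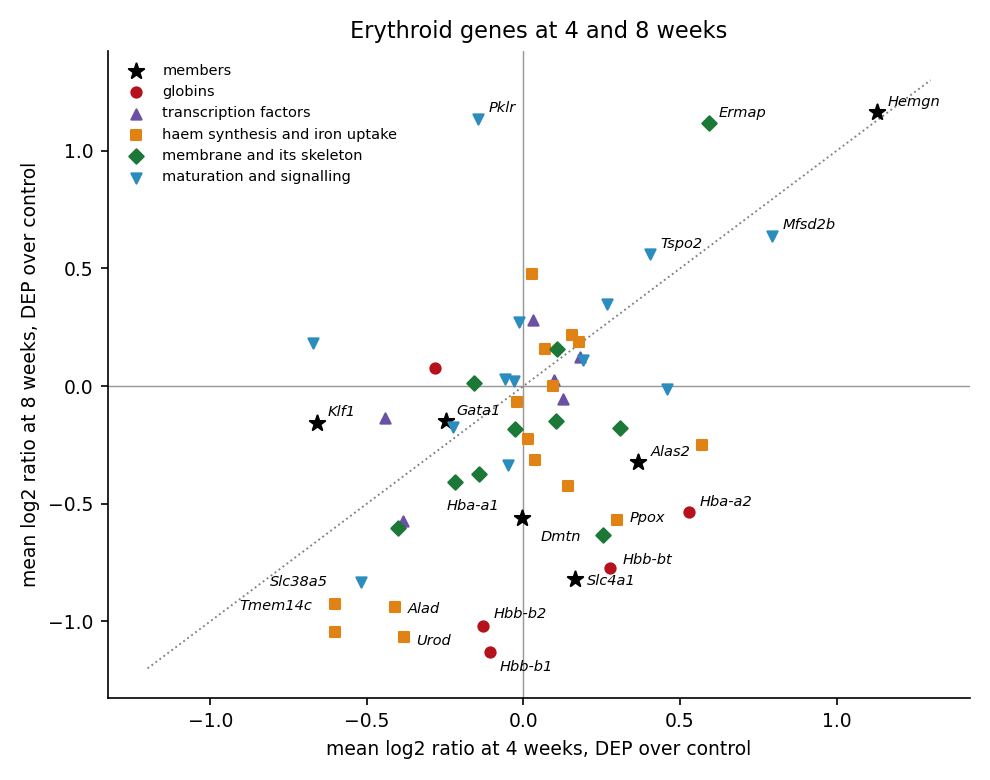
Mean log2 ratio of DEP over control after 4 weeks (horizontal axis) and after 8 weeks (vertical axis) of the 6 listed genes (stars) and the 49 other erythroid genes tested, by list, with a dotted line where both times are equal. *Hemgn*, *Mfsd2b*, *Tspo2* and *Ermap* are among the genes that lie above 0 at both times. The globin genes other than *Hbb-y* lie below the dotted line with *Alas2* and *Slc4a1*.

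Markers of other blood and marrow cells were followed beside the erythroid genes, and their part in the erythroid ratios was not tested. The counts of these lists, here and below, stand beside 21.6% of all genes called higher and 16.5% lower after 4 weeks. After 8 weeks these shares were 20.3% and 17%. Lists of so few genes near these shares show no more than the background of calls. Of 13 neutrophil genes tested, 8 were called lower after 4 weeks and 0 higher, and 7 lower and 2 higher after 8 weeks. *S100a9* and *S100a8*, whose proteins fill the neutrophil cytosol, had log2 ratios of -1.71 and -0.78 after 4 weeks and of -1.80 and -1.78 after 8 weeks (adjusted p = 2.3e-06, 1.4e-04, 2.4e-06 and 4.3e-06, limma). Of the granule enzymes of marrow precursors, *Mpo* fell by 0.73 and 1.26 (adjusted p = 0.014 and 0.0025). Its 4-week value was -0.48 without replicate 4, which stood at -1.51, and lost the call with the background model fitted on all spots (adjusted p = 0.053). By contrast, *Elane* had log2 ratios of 0.25 that did not pass the test at either time (adjusted p just above 0.05, and 0.078). With the processed signals *Elane* passed after 4 weeks (0.448, adjusted p = 0.021) and not after 8 weeks (0.274, adjusted p = 0.15). *Ltf* had log2 ratios of 0.19 and 0.36 (adjusted p = 0.15 and 0.03). The 8-week call of *Ltf* was lost without any single 8-week array, with the processed signals and with median centring. The summed neutrophil level was 39130 to 39330 in the control and 29210 to 38690 in the DEP channel after 4 weeks, and 35730 to 37450 and 33020 to 36300 after 8 weeks. Of 8 platelet and megakaryocyte genes tested, 1 was called higher and 2 lower after 4 weeks, and 1 higher and 3 lower after 8 weeks. *Ppbp* fell by 0.78 and 1.46 (adjusted p = 4.6e-05 and 3.9e-06) and *Pf4* by 0.34 and 0.66 (adjusted p = 0.0028 and 2e-04). The summed level of that list was 1435 to 1845 in the control and 1238 to 1389 in the DEP channel after 4 weeks, and 1659 to 1733 and 1180 to 1310 after 8 weeks.

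Defining markers of B cell precursors were at or near background, since *Rag1* was not well above it in any channel and *Vpreb1* had log2 ratios of 0.08 and -0.14 (adjusted p = 0.35 and 0.18, limma). Of the 7 genes tested, 1 was called higher and 1 lower after 4 weeks, and 2 higher and 0 lower after 8 weeks. The list sums were 1393 to 1601 in the control and 1513 to 1652 in the DEP channel after 4 weeks, and 1952 to 2075 and 2013 to 2111 after 8 weeks. *Cd79b* of B cells fell by 0.45 and then rose by 0.43 (adjusted p = 7.6e-04 and 0.0017), and *Ebf1*, which is also active in other cells, rose by 0.41 (adjusted p = 0.0016) and then had a value of -0.20. Of 9 progenitor genes tested, 3 were called higher and 1 lower after 4 weeks, and 4 higher and 1 lower after 8 weeks. The progenitor marker *Kit* had log2 ratios of -0.58 and 0.06 that did not pass the test, and *Flt3* of -0.93 and 0.19. *Hlf*, a transcription factor of stem cells and many other tissues, rose by 0.92 and then fell by 0.53 (adjusted p = 1.2e-04 and 0.003). The progenitor sums were 2756 to 3474 in the control and 2605 to 3276 in the DEP channel after 4 weeks, and 3013 to 3211 and 3465 to 3840 after 8 weeks. Of 5 genes tested of macrophages that recycle haem, 0 were called higher and 4 lower after 4 weeks, and 1 higher and 2 lower after 8 weeks. Their marker *Cd163* was not well above background in any channel, and *C1qa* fell by 0.41 and 0.45 (adjusted p = 0.0031 and 0.0038). *Hmox1*, which breaks down haem, fell by 0.83 after 4 weeks (adjusted p = 0.024), a call lost without replicate 2 or replicate 4 of that time, with the all-spot background model (adjusted p = 0.051) and with the processed signals (adjusted p = 0.063). It had a value of -0.20 after 8 weeks. A second *Hmox1* probe gave -0.09 and 0.10, which did not pass the test. The sum of the macrophage list was 1553 to 1685 in the control and 900.1 to 1393 in the DEP channel after 4 weeks, and 1968 to 2149 and 1963 to 2079 after 8 weeks.

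Bone, vessel and nasal markers were followed too. Of 9 genes of bone-forming cells, 1 was called higher and 4 lower after 4 weeks, and 5 higher and 0 lower after 8 weeks, with *Bglap*, osteocalcin, at -0.56 and then 0.55 (adjusted p = 4.1e-04 and 7.6e-04, limma), *Phex* at -0.67 and 0.83 (adjusted p = 1.6e-04 and 9.3e-05) and *Col1a1* at -0.53 and 0.67 (adjusted p = 9.5e-04 and 5.7e-04). Their summed level was 41160 to 44510 in the control and 31800 to 36200 in the DEP channel after 4 weeks, and 46120 to 47720 and 65170 to 67100 after 8 weeks. The osteoclast genes *Acp5* (-0.67 and -0.31, adjusted p = 5.1e-05 and 0.0039) and *Ocstamp* (0.05 and 1.04, adjusted p = 0.65 and 1.1e-04) did not follow 1 pattern. Of 7 osteoclast genes tested, 1 was called higher and 4 lower after 4 weeks, and 3 higher and 2 lower after 8 weeks, and the osteoclast sums were 12370 to 13060 in the control and 7923 to 8805 in the DEP channel, then 10700 to 11620 and 10100 to 10940. Of 7 endothelial genes tested, 1 was called higher and 3 lower after 4 weeks, and 0 either way after 8 weeks (limma), when 3 had an unadjusted p under 0.05. The marker *Pecam1* had log2 ratios of 0.09 and 0.14 that did not pass the test. *Emcn* fell by 0.35 after 4 weeks (adjusted p = 0.017), with replicate 4 at -0.70, and lost the call with the all-spot background model (-0.28, adjusted p = 0.079) and the processed signals (-0.57, adjusted p = 0.13). *Kdr* rose by 0.48 (adjusted p = 0.048), a call lost without any single 4-week array, with the all-spot background model and with median centring, while a second *Kdr* probe fell by 0.19 (adjusted p = 0.035). The endothelial sums were 2926 to 3159 in the control and 3333 to 3864 in the DEP channel after 4 weeks, and 3049 to 3309 and 2894 to 5183 after 8 weeks. Of the 11 nasal genes, 5 were called higher and 0 lower after 4 weeks, and 4 higher and 5 lower after 8 weeks. *Omp* rose by 0.89 and then fell by 0.43 (adjusted p = 3.9e-05 and 0.0024), the same order of signs as for *Alas2* and *Hba-a2*. *Obp1a*, an odorant-binding protein of nasal glands, had a value of -0.26 and then rose by 1.502 (adjusted p = 0.06 and 3.6e-05), and *Bpifa1* had a value of 0.04 and then rose by 0.41 (adjusted p = 0.58 and 0.0019), a call lost with the processed signals (0.21, adjusted p = 0.059). With the processed signals *Phex* was -1.07 after 4 weeks, and *Ppbp* was -2.40 and *Cd79b* 0.69 after 8 weeks. With median centring *Hlf* was -0.83, *Acp5* -0.52 and *Bglap* 0.29 after 8 weeks. The sums of the nasal genes were 268500 to 294600 in the control and 319200 to 368700 in the DEP channel after 4 weeks, and 289100 to 311900 and 370400 to 392100 after 8 weeks.

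**Figure D4:**
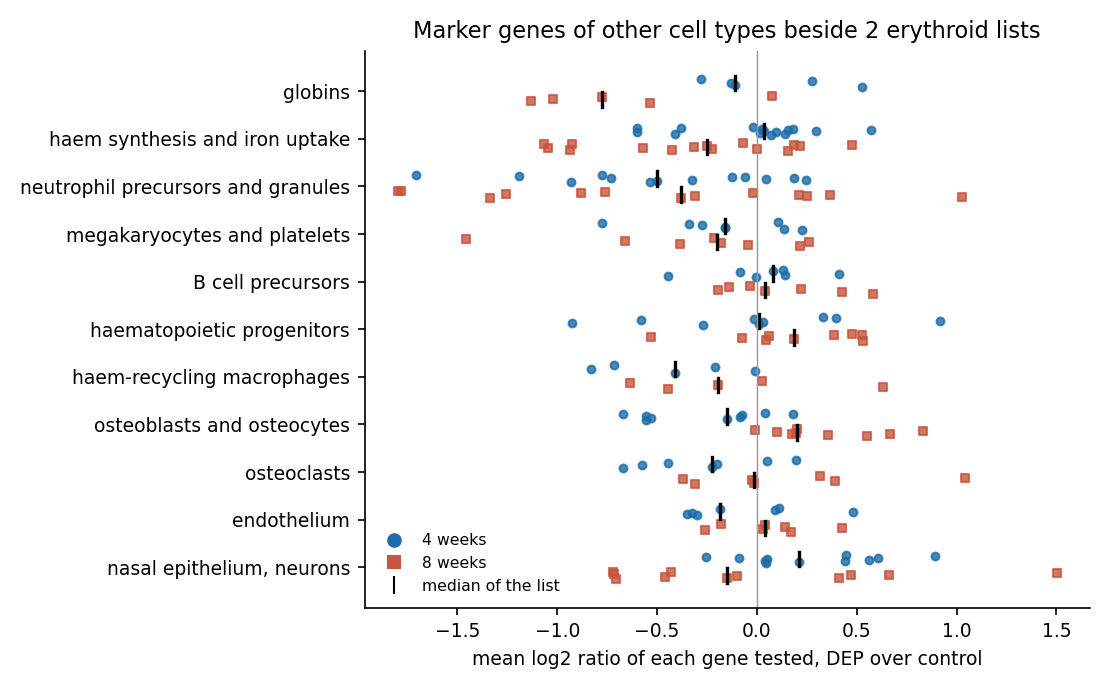
Mean log2 ratio of DEP over control (horizontal axis) of each gene tested in 2 erythroid lists and 9 lists of other cell types (rows), after 4 weeks (blue circles) and 8 weeks (red squares), with black bars at the list medians. The globin median goes from -0.11 to -0.77, the neutrophil median lies below 0 at both times (-0.50 and -0.38), and the median of bone-forming cells goes from -0.15 to 0.20.

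The 5 genes whose log2 ratio over the 7 arrays was most like that of *Hemgn* were *Rab37* (Pearson r = 0.973), *Ogg1* (0.97), the unnamed array transcript TC1686095 (0.97), *Il3ra* (0.964) and *Adcy4* (0.951). Their mean log2 ratios lay between -0.18 and 0.31, far from the 1.13 and 1.16 of *Hemgn*. None of the other erythroid genes was among them, but 5 places among 20664 genes are too few for this to describe those genes. With *Hemgn* between 1.00 and 1.26 on all 7 arrays, these correlations describe small differences between arrays that share slide and processing.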

How the data were processed

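Total RNA of nasal tissue was hybridized to Agilent mouse 4x44K arrays, 4 after 4 weeks and 3 after 8 weeks of exposure, which the labels call replicates. The authors deposited 1 file per array, written by Feature Extraction 10.10.1.1. The deposited median signals and backgrounds are intensity values without background subtraction or normalization, and the deposited processed signals are intensity values after the software's background subtraction and dye normalization. The deposited ratio of the processed signals is on a log10 scale and was not used. The GeneSpring normalization that the study's methods name was not repeated here.

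With limma 3.58.1 in R 4.3.3, median backgrounds were corrected by normexp (offset 50), with the software's background outlier spots kept out of the parameter fit. The offset pulls the ratios of dim genes toward 0. Log2 ratios of DEP over control were normalized within arrays by loess, non-uniform spots were dropped, and levels per channel were scaled between arrays by quantiles of mean intensity. Of 39429 probes, 25162 were tested, those well above background in 1 channel or the other on 3 or more of the 7 arrays, and 28330 probes were named through RefSeq transcripts of GRCm38.p6. One mean per time and their difference were fitted over all 7 arrays and tested by limma with Benjamini-Hochberg adjustment over all probes tested, with calls at an adjusted p of at most 0.05. Where a gene had several tested probes, the brightest on average stands for it.

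The members and lists were chosen with earlier results of these data known. Of each other erythroid list the text names the 4 genes with the largest mean absolute log2 ratio and every gene called at both times, and of each list of another cell type the 2 largest with the fixed defining markers. *Epb42*, *Icam4*, *Hba-x* and *Hbb-y* were named after their values were seen. A gene that the rule names is not reported here. Alternatives were the background model fitted on all spots, the software's processed signals, median centring, another offset (16), other filters on dim probes, each array left out in turn, single-time fits, the replicate number as a block and the methods' t-test. The steps were tested on simulated arrays. Nothing in the sources used here ties replicates to separate mice beyond the label, so p-values measure the spread between arrays. The number of arrays limits the precision.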

Additional observations from a re-analysis of the deposited data

Results flagged for a closer look

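Of the genes named in the report, 29 of 54 tested beside *Hemgn* had a log2 ratio of DEP over control that differed between 8 and 4 weeks (adjusted p of at most 0.05, limma, for the difference itself). Over all genes tested, the ratio was called lower after 8 weeks for 16.1% and higher for 14.9%. Many named genes were picked from these data for large ratios or calls at both times, so their share is raised by that choice. Among the listed erythroid genes the difference, 8 minus 4 weeks, was -0.691 for *Alas2*, -0.982 for *Slc4a1* and -0.555 for *Hba-a1*. The adult globin genes differed the same way, by -1.063 for *Hba-a2*, -1.05 for *Hbb-bt*, -1.023 for *Hbb-b1* and -0.891 for *Hbb-b2*. The genes of haem synthesis did so too, by -0.867 for *Ppox*, -0.685 for *Urod*, -0.53 for *Alad* and -0.324 for *Tmem14c*, as did *Dmtn* (-0.884) and *Slc38a5* (-0.317). *Ermap* and *Pklr* differed the other way, by 0.528 and 1.281. The call of the difference was lost for *Tmem14c* without replicate 2 or 3 of either time (adjusted p = 0.052 to 0.089), for *Alad* without replicate 2 of 8 weeks (-0.478, adjusted p = 0.064) and for *Ermap* without replicate 1 or 2 of 8 weeks (0.49 and 0.503, adjusted p = 0.053 and 0.068).

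Outside the erythroid genes, the ratio was lower after 8 weeks for *Omp* (-1.324), *Hlf* (-1.45), *S100a8* (-1.006), *Ppbp* (-0.681), *Ebf1* (-0.609) and *Pf4* (-0.319, lost without replicate 2 or 4 of 4 weeks or replicate 1 or 2 of 8 weeks, adjusted p = 0.056 to 0.068). It was higher after 8 weeks for the bone genes *Phex* (1.504), *Col1a1* (1.2), *Bglap* (1.108), *Ocstamp* (0.995) and *Acp5* (0.364), and for *Obp1a* (1.758), *Cd79b* (0.873) and *Bpifa1* (0.371). Each time lies on 1 slide, so all these differences are also differences between slides, and the share of either cannot be told apart.

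Single 4-week arrays stood apart from the other 3 in 6 of 55 named genes, where chance alone gives about 1 in 20. These were replicate 4 for *Hbb-bt* (0.341), *Emcn* (-0.701) and *Mpo* (-1.507), replicate 1 for *Ermap* (0.27) and *Obp1a* (-0.467), and replicate 2 for *Ank1* (-1.24).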

How the results depend on the processing

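Of the counts recomputed under the alternatives, 132 stayed within 1.5 times the reported count and 24 did not. The 2 listed genes other than *Hemgn* called higher after 4 weeks became 1 with the background model fitted on all spots, with median centring and with probes well above background in both channels of all arrays, and 1 to 2 without single arrays. The 13 other erythroid genes called higher after 4 weeks became 20 with the software's processed signals and 8 with median centring. Without single arrays the counts were 10 to 14 higher and 8 to 9 lower after 4 weeks, and 6 to 10 higher and 16 to 19 lower after 8 weeks. The 23 erythroid genes called for the difference between the times became 17 to 27 without single arrays and 28 with the processed signals. At the study's threshold (p of at most 0.01 and at least 2-fold) the methods' t-test called 0 listed genes other than *Hemgn* higher after 4 weeks, 0 other erythroid genes higher and 0 lower after 4 weeks, and 2 higher and 4 lower after 8 weeks. The fold limit alone set the 4-week counts. Mean log2 ratios ran from -0.658 to 0.367 for the listed genes other than *Hemgn* and from -0.671 to 0.793 for the other erythroid genes. After Benjamini-Hochberg the methods' t-test called 1 listed gene other than *Hemgn* higher and 4 other erythroid genes lower after 4 weeks.

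Over all genes, 7878 were called after 4 weeks, against 5042 with the background model fitted on all spots, 254 and 4325 by the methods' t-test at the study's threshold and after adjustment, and 5675 to 7916 without single arrays. After 8 weeks 7708 were called, against 585 and 4771 by the methods' t-test and 4464 to 8538 without single arrays. For the difference 6388 were called, against 3876 to 6851. The lowest of these last ranges came without replicate 2 of 8 weeks. Arrays with the same replicate number did not deviate together (correlations of -0.006, -0.007 and 0.017), and with the replicate number as a block 14 erythroid genes and 3200 genes in all were called for the difference.

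The difference of *Gata1* reversed from 0.10 to -0.463 with the processed signals and to -0.115 without replicate 1 of 4 weeks (range without single arrays -0.115 to 0.219), and the value of *Hba-a1* after 4 weeks to 0.041 with the processed signals and 0.083 without replicate 4 (range -0.053 to 0.083), none of them called. *Klf1* after 4 weeks passed the test with the processed signals (-2.222), with offset 16 (-1.017), and without replicate 1 (-0.899) or replicate 4 (-0.811). *Hemgn* was 1.024 and 0.879 with median centring. The median of all probes moved to 0.111 after 4 weeks with the processed signals and to -0.11 after 8 weeks with median centring. Of 103 calls of named genes, 92 held without each array in turn. Of 74 calls at single times, 65, 69 and 65 held with the all-spot background model, the processed signals and median centring, and none changed sign. Low signal limits *Gata1* and *Klf1*.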
